A study of Danio rerio with 4 samples.

Results

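MicroRNAs (miRNAs) of sorted zebrafish neural crest cells (NCC) were compared with those of the remaining cells of the embryo (non-NCC) at 28 hours post-fertilization (hpf). The comparison rests on 2 of the 4 small RNA libraries of the study, 1 library for each population, and takes all 372 miRNA rows of the deposited table. Rows whose names share a number were summed into families, with letters, copy numbers and arms pooled, of which 98 had a read in either library and 45 had none. All cells came from embryos carrying Tg(sox10:eGFP,mRFP), in which the sox10 promoter drives both fluorescent proteins. GFP-positive cells were taken as NCC and GFP-negative cells as non-NCC by fluorescence-activated sorting, with mRFP as a control of the gate. The NCC library is therefore defined by activity of the sox10 promoter, the non-NCC library mixes all other tissues, and the number of embryos behind each is not given in the sources used here. The other libraries are the same populations at 16 hpf. Because the tables hold miRNAs and no mRNAs, sox10 and foxd3, which mark the crest, could not be read in them.

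miRNAs are short RNAs that guide the silencing complex to messenger RNAs with partial complementarity, which are then translated less or degraded. They are cut from hairpin precursors, whose 5p and 3p arms can each give a mature miRNA, and many are made from several gene copies. Members of a family usually share the seed, the stretch near the 5′ end that does most of the target recognition, and so can share targets. Neural crest cells arise at the border of the neural plate, migrate through the embryo and form pigment cells, peripheral neurons and glia, and much of the skeleton of the face. At 28 hpf many have migrated and their derivatives are differentiating. The comparison asks which miRNAs were overrepresented in either population at this stage.

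The libraries differed in depth. The deposited values are normalized counts, in which reads are divided by a size factor, and dividing them by the smallest nonzero value gave back whole reads in 100% of rows. The NCC library held 6502 reads in 51 rows and 33 families, and the non-NCC library held 1099312 reads in 237 rows and 97 families, 169 times as many reads. A read was worth 11.4 normalized counts for the crest library and 0.0877 for the other, so that 1 NCC read stood for 130 non-NCC reads. A level was taken as measurable from 3 reads on, which is 34.2 normalized counts in NCC but 0.263 in non-NCC. Intervals below are 95% Clopper-Pearson or exact Poisson intervals of the reads. They and the exact tests compare libraries rather than populations and account for counting error alone, since there is no replicate and PCR copies were not marked. A share of reads also cannot tell fewer cells of a type from less RNA per cell.

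A few families made up nearly all of both libraries, and they came in the same order at the top. miR-430, which is transcribed when the embryonic genome switches on and clears maternal mRNAs, held 4734 of the NCC reads, 72.8% of the library (interval 71.7 to 73.9), against 732916 reads or 66.7% in non-NCC. miR-10, encoded within the Hox clusters, came next with 747 reads in NCC (11.5%) and 152015 in non-NCC (13.8%). miR-181, a family of nervous system and blood, had 636 NCC reads (9.78%, interval 9.07 to 10.5) and 106928 non-NCC reads (9.73%). miR-92, from the miR-17 group of cell proliferation miRNAs, followed in both, at 1.41% in NCC and 5.03% in non-NCC. The next place differed: it was held by miR-205 in NCC, which ranked 14 in non-NCC, and by miR-21 in non-NCC, which ranked 6 in NCC. The 5 families with the most NCC reads together took 96.5% of that library and 95.4% of non-NCC. Over the 32 families with reads in both libraries, Spearman's rho between the read counts was 0.81, given as a description across families, which are not replicates.

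**Figure D1:**
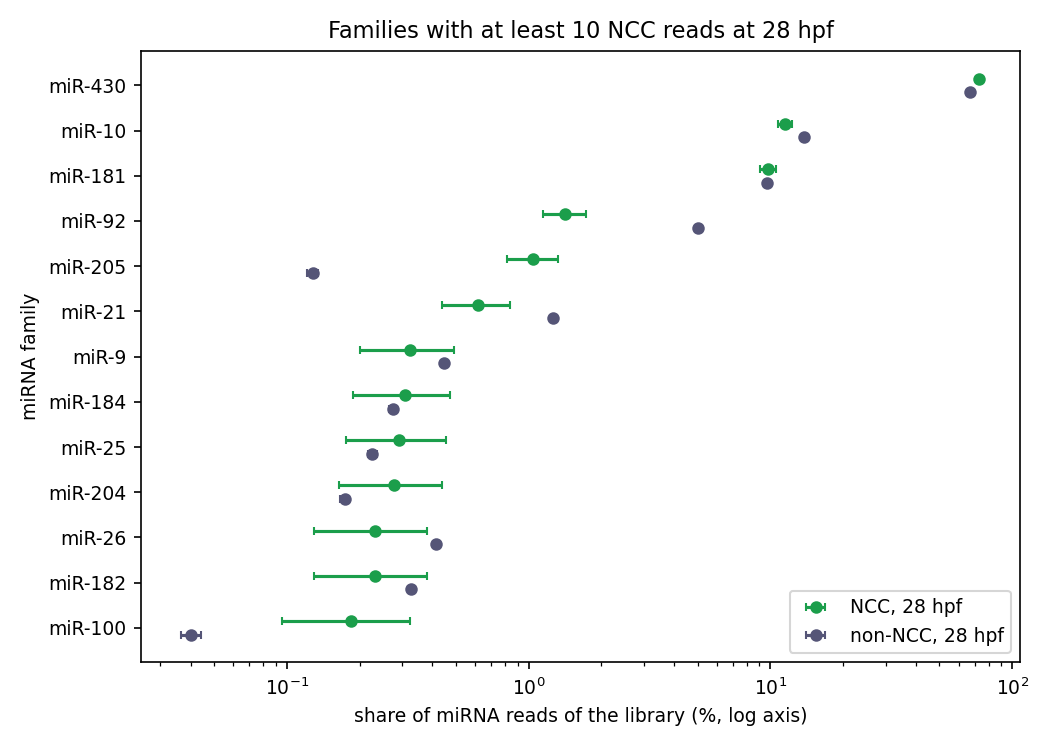
Share of each library's miRNA reads (%, log axis) held by the 13 families with at least 10 NCC reads at 28 hpf; points are the NCC and non-NCC libraries and bars are 95% Clopper-Pearson intervals. miR-430 held 72.8% of NCC and 66.7% of non-NCC reads, miR-205 lay to the right in NCC (1.05% against 0.128%) and miR-92 to the left (1.41% against 5.03%).

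Of the 98 families with a read in either library, 32 had reads in both, 65 only in non-NCC and 1 only in NCC. Among the 32, 9 families (28.1%) were more than 2-fold higher in NCC by normalized count, 9 (28.1%) were more than 2-fold lower and 14 lay between. Few reads stood behind many of these: 4 of the 9 higher and 4 of the 9 lower families had at most 3 NCC reads. Since 1 NCC read stood for 130 non-NCC reads, any NCC read placed a family with few non-NCC reads over 2-fold higher. This held for miR-24, miR-722, miR-128, miR-462 and miR-103, with 1, 3, 10, 43 and 51 non-NCC reads, respectively. Their direction was thus fixed once they had reads in both libraries, and the equal numbers on both sides are not a result. The two-sided exact binomial test on the reads, with Benjamini-Hochberg adjustment over the 98 families, called 6 families higher in NCC (6.12%) and 10 lower (10.2%) at an adjusted p under 0.05. Without adjustment, 8 were higher and 12 lower. The balance turned with the scaling, to 7 higher and 5 lower with library totals or TMM factors, and to 8 higher and 3 lower with totals without miR-430. The deposited scaling set the NCC normalized total lower than the non-NCC total, by a log2 ratio of -0.38. Scaling to library totals therefore moves every log2 ratio up by 0.38, edgeR's TMM (trimmed mean of M values) factors move it up by 0.41, and totals without miR-430 move it up by 0.67. Changes are read relative to these shifts.

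miR-205 was the best covered of the families higher in NCC. This miRNA is known from epithelia such as the skin and from epithelial identity in mammals. It had 68 reads in NCC, or 775 normalized counts (interval 602 to 983), against 1407 reads or 123 normalized counts (117 to 130) in non-NCC. Equal levels would have given 10.8 NCC reads. The NCC value was 6.29-fold higher, a log2 ratio of 2.65 (2.28 to 3.0; exact binomial test, adjusted p = 1.58e-29). All of its reads lay on miR-205-5p, for which the GRCz12tu gene table names 1 precursor gene, so no copy of the gene could share them. Its call held with library totals, TMM factors and totals without miR-430, at log2 ratios of 3.03, 3.06 and 3.32. The other settings run on it left the ratio at 2.65 or 2.66, as only adding 0.5 reads changed its counts. Without its row of most NCC reads it had no read left and was not tested. The other epithelial families listed gave almost nothing to set beside it. miR-200 had 1 NCC read and 107 non-NCC reads, and miR-203, of the outer skin, had 0 and 225. miR-141 and miR-429, which neighbour miR-200 genes, had no NCC read, against 16 and 39 in non-NCC. Summed, the 5 epithelial families had 69 reads in NCC and 1794 in non-NCC, against 13.8 expected in NCC, and nearly all of that sum was miR-205.

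miR-100 and miR-219 were higher in NCC with fewer reads. miR-100, processed from clusters it shares with let-7 and miR-125, had 12 NCC reads (136.8 normalized counts, interval 70.7 to 239) and 442 non-NCC reads (38.8 normalized counts, 35.2 to 42.5). Its ratio was 3.53-fold, log2 1.82 (0.86 to 2.64; exact binomial test, adjusted p = 0.00171). miR-219, which in mammals promotes the maturation of myelinating glia of the central nervous system, had 9 NCC reads (103 normalized counts, 46.9 to 195) and in non-NCC 180 reads of miR-219-5p and 3 of the other arm (16.0 normalized counts, 13.8 to 18.5). This was 6.40-fold higher, log2 2.68 (1.53 to 3.63; exact binomial test, adjusted p = 0.000248). The reads of miR-100 and miR-219 may be fewer than counted. miR-100-5p has 2 precursor genes and even counts in all 4 libraries, and miR-219-5p has 3 precursor genes and counts that are all multiples of 3. With such counts divided by the number of genes, the ratios stayed at log2 1.78 and 2.63 but were no longer called (exact binomial test, adjusted p = 0.0634 and 0.0774).

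The other families called higher in NCC had from 2 to 4 NCC reads. miR-24, a widely expressed miRNA made next to miR-23 and miR-27, had 4 NCC reads, which equal levels would match with 520 in non-NCC, and only 1 non-NCC read was counted. Its log2 ratio was 9.02 (5.69 to 14.64; exact binomial test, adjusted p = 2.36e-07). The 4 reads lay on the row miR-24 and the non-NCC read on miR-24b-5p. Its neighbours had no NCC read: miR-23 had 0 reads in NCC and 10 in non-NCC, and miR-27 had 0 and 93. Equal levels would have given 0.0769 and 0.715 NCC reads, too few to place either against an equal level. The upper ends of their log2 intervals were 5.86 and 2.40, so only that of miR-27 lay below the interval of miR-24. At 16 hpf the family had 2 NCC reads and 586 non-NCC reads. miR-128, a neuronal miRNA, had 3 reads in NCC and 10 in non-NCC, a log2 ratio of 5.29 (2.79 to 7.24; exact binomial test, adjusted p = 0.00098). miR-137, also neuronal and a regulator of the pigment cell factor MITF in mammals, was the family seen only in NCC. It had 0 reads on miR-137-3p in either library. On miR-137-5p it had 2 reads, 22.8 normalized counts, and 0 of 1099312 in non-NCC, with an upper interval end of 0.323 normalized counts. Both values are at or under the 3-read limit of their library and no fold is given (exact binomial test, adjusted p = 0.000571). miR-137-5p has 2 precursor genes and even counts in all 4 libraries, and with its reads divided it was no longer called. The row miR-24 has 4 precursor genes and miR-128-3p, which held the NCC reads of miR-128, has 3, as many as their NCC reads. Their counts in the 4 libraries were not all multiples of these numbers, so they were not divided. Whether copies of a gene shared these reads was not tested.

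Of the families lower in NCC, miR-92 stood out by reads and size. It had 92 NCC reads, or 1049 normalized counts (846 to 1287), and 55302 non-NCC reads, or 4849 normalized counts (4809 to 4890), where equal levels would have given 425 NCC reads. This was 4.62-fold lower in NCC, a log2 ratio of -2.21 (-2.52 to -1.91; exact binomial test, adjusted p = 8.02e-83). Its log2 ratio lay between -2.21 and -1.54 over 9 alternatives, and its call held in each in which the test was rerun. Several of the miR-92 genes lie beside miR-17, miR-18, miR-19 and miR-20 genes, and none of these 4 families had an NCC read. Their non-NCC reads were 177, 36, 292 and 112, respectively, so that fewer than 3 NCC reads were expected of each, and this depth could not show whether they were lower. miR-25, a relative of miR-92 in another cluster of the group, had 19 NCC reads where 19.1 were expected, a log2 ratio of -0.01 (-0.74 to 0.64) that became 0.37 with library totals, 0.66 with totals without miR-430 and 0.40 with TMM factors. The row miR-25-3p, which held all 19 NCC reads, had 216.7 normalized counts in both libraries. Its ratio is the median of the rows with reads in both, so the deposited scaling itself places this row at an equal level. Over the listed proliferation families, 111 NCC reads, all of miR-92 and miR-25, stood against 58531 non-NCC reads, most of them of miR-92. Equal levels would have given 450 NCC reads over the list.

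miR-21, abundant in many proliferating and injured tissues, was the second well covered family with a lower level in NCC under every alternative run. It had 40 NCC reads (456 normalized counts, 326 to 621) and 13849 non-NCC reads (1214 normalized counts, 1194 to 1235), which is 2.66-fold lower. The log2 ratio was -1.41 (-1.90 to -0.97; exact binomial test, adjusted p = 6.83e-12), and it lay between -1.41 and -0.74 over 8 alternatives. Families of smaller read number were also called lower. miR-30, present in many epithelia, had 5 NCC reads spread over 4 rows and 2847 reads in non-NCC, a log2 ratio of -2.13 (-3.75 to -0.91; exact binomial test, adjusted p = 0.000373). miR-222, which shares a transcript with miR-221, had 9 and 3190 reads (log2 -1.45, interval -2.58 to -0.52; exact binomial test, adjusted p = 0.00464). miR-221 itself had 1 and 139 reads, too few to place. miR-26 had 15 and 4554 reads (log2 -1.22, interval -2.06 to -0.50; exact binomial test, adjusted p = 0.00171). miR-9, made by neural progenitors, had 21 and 4929 reads (log2 -0.85, interval -1.55 to -0.24; exact binomial test, adjusted p = 0.0253). All its NCC reads lay on miR-9-5p, which has 7 precursor genes. Both counts of that row at 28 hpf, 21 and 4452, are multiples of 7, so the reads of miR-9 may be fewer than counted. Its counts were not multiples in every library, so they were not divided. The calls of miR-222, miR-26 and miR-9 were lost with library totals, with TMM factors and with totals without miR-430, and that of miR-30 with the last of these (exact binomial test, adjusted p = 0.0969). miR-9 also lost its call when only the dominant arm was counted (exact binomial test, adjusted p = 0.131), and miR-222 without its row of most NCC reads (log2 -0.33).

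miR-454 was called lower without a single NCC read. It had 1325 non-NCC reads, or 116 normalized counts (110 to 123), from which 10.2 NCC reads were expected, and 0 of 6502 were counted. The non-NCC level was 3.40-fold the 3-read limit of NCC, 34.2 normalized counts. The upper end of the two-sided log2 interval was -1.46 (exact binomial test, adjusted p = 0.000805). It neighbours miR-130 and miR-301 genes, and these families also had 0 NCC reads beside 126 and 173 in non-NCC, which is too few to show a difference.

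**Figure D2:**
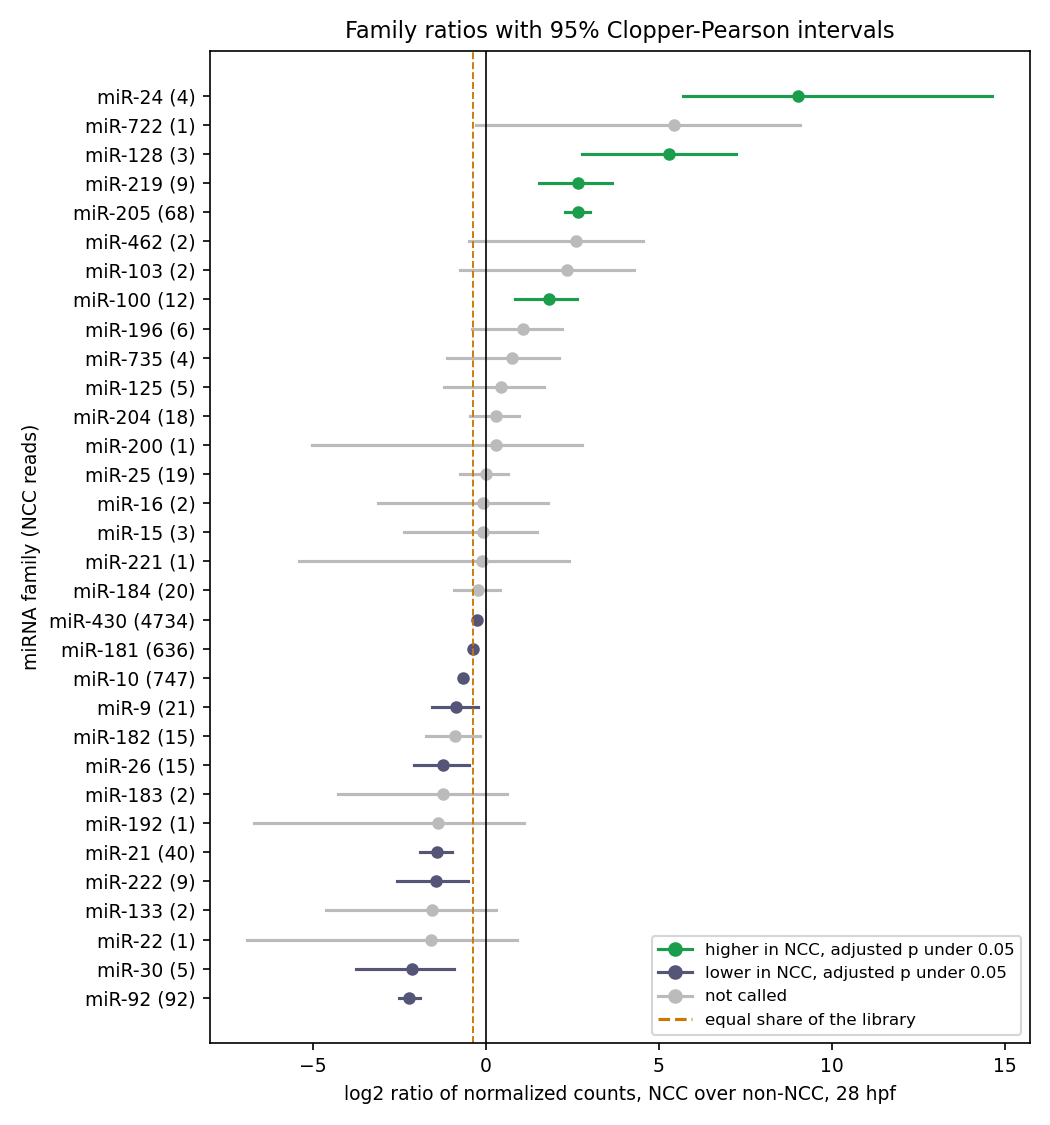
Log2 ratio of NCC over non-NCC normalized counts at 28 hpf with 95% Clopper-Pearson intervals, the number of NCC reads in brackets after each family; the dashed line marks an equal share of the library. miR-205 (2.65) and miR-92 (-2.21) lay on opposite sides with narrow intervals, while miR-24, at 9.02, reached from 5.69 to 14.64; miR-430 (-0.25) and miR-181 (-0.37) change side when the dashed line is taken as the reference.

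The 3 most abundant families were called lower in NCC by small amounts, and the direction of miR-430 and miR-181 depended on the scaling. miR-430 had 53987 normalized counts in NCC (52460 to 55547) and 64268 in non-NCC (64121 to 64415), a log2 ratio of -0.25 (-0.29 to -0.21; exact binomial test, adjusted p = 2.92e-33). With library totals the ratio was 0.13, with TMM factors 0.16 and with totals without miR-430 0.42, and it was called higher in NCC under each. miR-181 had 7253 and 9376 normalized counts, a log2 ratio of -0.37 (-0.49 to -0.26; exact binomial test, adjusted p = 3.06e-10), which became 0.01, 0.04 and 0.30 under the same settings. Its difference was no longer called with library totals or TMM factors, and with totals without miR-430 it was called higher. miR-10 had 8519 and 13330 normalized counts, a log2 ratio of -0.65 (-0.75 to -0.54; exact binomial test, adjusted p = 7.65e-38). It was lower in NCC under library totals and TMM factors too, and reached 0.03 only with totals without miR-430. miR-196, the other family of the Hox clusters, had 6 and 374 reads, log2 1.06 (-0.39 to 2.20), and was not called.

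For 4 of the 13 families with at least 10 NCC reads, no difference between the libraries passed the test. They are miR-25, which the deposited scaling places at an equal level, as said above, and miR-184, miR-204 and miR-182. miR-184, of epithelia and the eye in mammals, had 20 NCC reads (228 normalized counts, interval 139 to 352) and 3016 non-NCC reads (264 normalized counts, 255 to 274). Its log2 ratio was -0.21 (-0.93 to 0.42), and 0.17, 0.20 and 0.46 with library totals, TMM factors and totals without miR-430. miR-204, a miRNA of the eye and of pigmented epithelium, had 18 NCC reads (205.3 normalized counts, 122 to 324) and 1905 non-NCC reads (167 normalized counts, 160 to 175). Its log2 ratio was 0.30 (-0.46 to 0.96), so the reads leave room for a level somewhat lower or higher in NCC. All of these reads lay on miR-204-5p, which has 3 precursor genes, and both counts are multiples of 3. The reads of miR-204 may thus be fewer than counted and its interval too narrow, which was not tested. miR-182, of sensory hair cells and the retina, had 15 and 3590 reads, log2 -0.88 (-1.72 to -0.16; exact binomial test, adjusted p = 0.0688). It was called lower when only families with at least 10 reads in both libraries were tested (exact binomial test, adjusted p = 0.0164). miR-183 and miR-96, made from the same cluster, had 2 and 0 NCC reads beside 613 and 11, and the 3 families together had 17 NCC reads where 32.4 were expected.

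Most families without NCC reads had too few non-NCC reads for a lower level in NCC to be shown at this depth. Of the 65 seen only in non-NCC, 63 were expected to give fewer than 3 NCC reads at an equal level, and 53 of them fewer than 1. The remaining 2 were miR-454 and miR-199. miR-199, a miRNA of mesenchyme and developing skeleton, had 655 non-NCC reads (57.4 normalized counts, 53.1 to 62.0), from which 5.04 NCC reads were expected. None was counted, so that the upper end of its log2 interval was -0.45 (exact binomial test, adjusted p = 0.0684). The next by non-NCC reads were miR-19 (292 reads), miR-375 of endocrine cells (234 reads) and miR-203 (225 reads), with 2.25, 1.80 and 1.73 NCC reads expected.

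**Figure D3:**
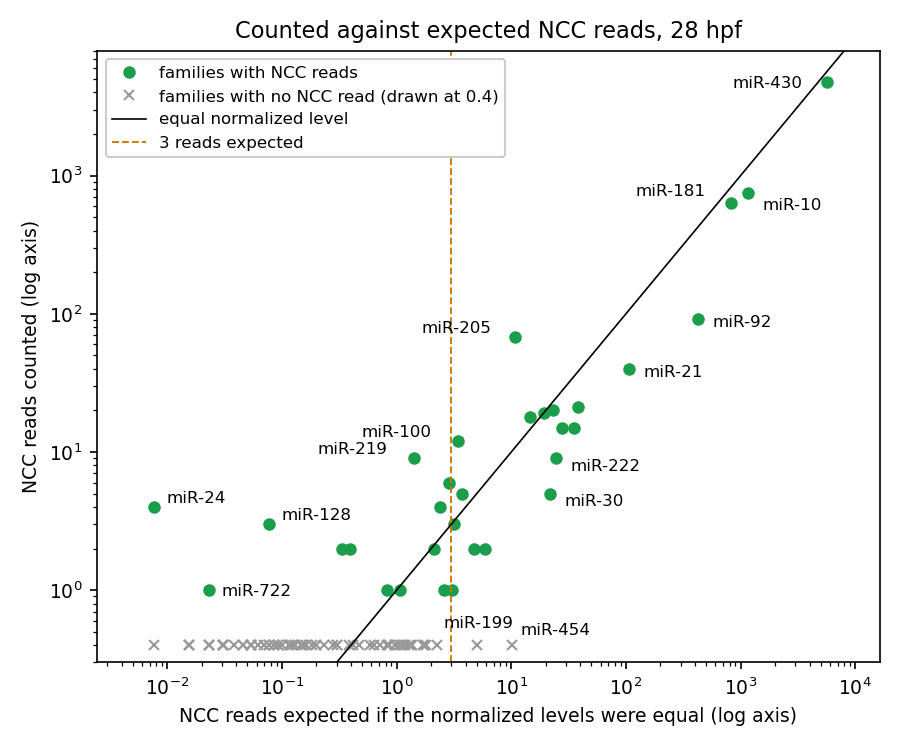
NCC reads counted for each family at 28 hpf against the number expected if its normalized level were equal in both libraries (both axes log); the solid line is equality, the dashed line marks 3 expected reads, and crosses are families with no NCC read (miR-137, with no non-NCC read, has no place on this axis). Of the 65 families without an NCC read, only miR-454 (10.2 expected) and miR-199 (5.04 expected) lie to the right of the dashed line.

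Lists of miRNAs known from other tissues were counted in the same way. Over all families, 33 of the 98 with reads had NCC reads. Whether any list differed from that share was not tested. Of the 12 neural families, 10 had reads and 4 had NCC reads: miR-128, miR-137 and miR-219 were called higher and miR-9 lower, against 6.12% and 10.2% of all families. As given above, miR-137 and miR-219 were no longer called with reads divided by precursor genes, and miR-128 had only 3 NCC and 10 non-NCC reads. The calls are therefore not read as a trait of the list. The summed reads of the neural families, 35 in NCC and 5676 in non-NCC, gave a log2 ratio of -0.32, beside -0.38 for all families. miR-9 held most of the sum. miR-124, the most neuron-restricted of them, had 0 NCC reads and 61 non-NCC reads, with 0.469 expected. The muscle families had 2 NCC reads, both of miR-133, and 794 non-NCC reads, with 6.11 NCC reads expected. miR-1 had no read in either library and miR-206 had 19 in non-NCC. miR-133 itself gave a log2 ratio of -1.57 (-4.62 to 0.29; exact binomial test, adjusted p = 0.606).

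The cartilage and mesenchyme families had 0 of 6502 NCC reads and 827 non-NCC reads, most of them of miR-199 (655) and miR-140 (12.5 normalized counts), with 6.36 NCC reads expected over the list. For a family at 0 NCC reads, the upper end of the two-sided interval was 42.1 normalized counts. miR-140, a cartilage miRNA, was expected to give 1.10 NCC reads, and the upper end of its log2 interval was 1.76, so a lower level in crest cells could not be seen. Blood and vessel families gave 2 NCC reads, both of miR-462, and took 0.0197% of the non-NCC reads. miR-462, known from hypoxia and interferon responses in fish, had a log2 ratio of 2.60 from 2 and 43 reads (-0.49 to 4.54; exact binomial test, adjusted p = 0.228). Endoderm families gave 1 NCC read, of miR-192, and 666 non-NCC reads. let-7, which marks the passage to differentiated cells, had 0 NCC reads and 168 non-NCC reads, with 1.29 expected.

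Most families that the study names as crest candidates or controls had few reads at this stage. miR-145, of smooth muscle, had 0 reads in NCC and 4 in non-NCC, and miR-338, of glia and bone, had 0 and 6, with 0.0308 and 0.0461 NCC reads expected. Neither level can be placed. miR-96, miR-133, miR-145, miR-199, miR-204 and miR-338 together had 20 NCC reads, 18 of them of miR-204, and 3352 non-NCC reads, with 25.8 NCC reads expected. That is a log2 ratio of -0.37, close to the -0.38 of all families, which had 6502 NCC reads where 8453 were expected. miR-125 had 5 NCC reads and 481 non-NCC reads, log2 0.43 (-1.19 to 1.67), and miR-16 had 2 and 274, log2 -0.08 (-3.13 to 1.79). Both intervals include an equal level and were wider than 2-fold on either side. The study names miR-125-5p and miR-16b. Of the 5p rows of miR-125, miR-125b-5p had 3 and 114 reads (log2 1.78, interval -0.52 to 3.36) and miR-125c-5p had 0 and 86. miR-125a, named without an arm, had 2 and 176 (log2 0.56, interval -2.49 to 2.44). miR-16b had 2 and 57 (log2 2.19, interval -0.89 to 4.11), and the other miR-16 rows had 0 NCC reads.

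In all, 20 families had from 1 to 9 NCC reads and together held 65 reads. Beside those already given, miR-735 had 4 NCC reads, miR-15 had 3, miR-103 had 2, and miR-722 and miR-22 had 1 each. With non-NCC reads of 308, 413, 51, 3 and 392, none of these was called by the exact binomial test. The 5 families higher than 2-fold that had more than 3 NCC reads were miR-24, miR-100, miR-196, miR-205 and miR-219, and the 5 lower were miR-21, miR-26, miR-30, miR-92 and miR-222.

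The make-up of a family can be compared without any scaling, since the reads of a row are set against the other rows of the same family in the same library. Of 41 rows tested in 9 families, 7 (17.1%) took a different share of their family in NCC and non-NCC by Fisher's exact test with Benjamini-Hochberg adjustment over the 41, 3 with a higher share in NCC and 4 with a lower one. Without adjustment there were 9. The 7 rows belong to miR-430, miR-10 and miR-181. Within a family a higher share of a row lowers the shares of the others, so these calls are not independent. The numbers of higher and lower rows are therefore tied to each other.

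Within miR-430, NCC reads lay more on miR-430b-3p and less on miR-430a-3p. miR-430b-3p had 3960 NCC reads, 83.7% of the family (82.6 to 84.7), and 470404 non-NCC reads, 64.2% (64.1 to 64.3; Fisher's exact test, adjusted p = 2.30e-191). miR-430a-3p had 756 NCC reads, 16.0% of the family (14.9 to 17.0), and 256842 non-NCC reads, 35.04% (34.9 to 35.2; Fisher's exact test, adjusted p = 1.85e-186). Each read of miR-430a-3p was thus matched by 5.24 of miR-430b-3p in NCC but by 1.83 in non-NCC. At 16 hpf the order was the other way round, with 1.95 in NCC and 4.003 in non-NCC. miR-430c-3p was a small part of the family, 0.380% in NCC and 0.715% in non-NCC (Fisher's exact test, adjusted p = 0.0240). By normalized count, miR-430b-3p had 45160 in NCC and 41249 in non-NCC, and miR-430a-3p had 8621 and 22522. At the deposited scaling, the lower family total in NCC therefore lay on miR-430a-3p. The gene table names 58 precursor genes of the family. How reads that match several of these copies were assigned is not given in the sources used here, and the part of that assignment in the split was not tested.

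Within miR-10, the c and d members differed while the main member did not pass the test. miR-10c-5p held 65 of 747 NCC reads, 8.70% (6.78 to 10.96), and 17.9% of the non-NCC family (Fisher's exact test, adjusted p = 2.40e-11). miR-10d-5p held 79 NCC reads, 10.6% (8.46 to 13.01), and 5.70% in non-NCC (Fisher's exact test, adjusted p = 2.16e-06). The reads of miR-10c-5p per read of miR-10d-5p were 0.823 in NCC and 3.14 in non-NCC, and at 16 hpf 5.64 and 6.45. miR-10b-5p held most of the family in both, with 70.1% in NCC and 67.3% in non-NCC (Fisher's exact test, adjusted p = 0.358), and miR-10a-5p held 10.4% and 9.10%. Within miR-181, miR-181b-5p took 17.5% of the NCC reads (14.6 to 20.6) and 12.0% of the non-NCC reads (Fisher's exact test, adjusted p = 0.000555). miR-181a-5p took 81.0% (77.7 to 84.0) and 85.8% (Fisher's exact test, adjusted p = 0.00527). The shares at 16 hpf were ordered in the same way, with miR-181b-5p at 24.4% in NCC and 17.6% in non-NCC. miR-181a-5p has 5 precursor genes and miR-181b-5p has 3. Both counts of miR-181b-5p at 28 hpf, 111 and 12861, are multiples of 3, so its reads may be fewer than counted. The part of gene copies in this split was not tested.

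Within miR-92, which differed in level, the members did not differ detectably. miR-92a-3p held 64.1% of the NCC reads (53.5 to 73.9) and 71.9% of the non-NCC reads, and miR-92b-3p held 35.9% (26.1 to 46.5) and 27.8% (Fisher's exact test, adjusted p = 0.358 for both). In miR-9, miR-25, miR-26, miR-100 and miR-182, all NCC reads lay on the row that was also dominant in non-NCC: miR-9-5p, miR-25-3p, miR-26a-5p, miR-100-5p and miR-182-5p. Both arms had NCC reads in 4 families (miR-10, miR-30, miR-181 and miR-222), and none of these had an unadjusted p under 0.05 by Fisher's exact test, in miR-30 and miR-222 on fewer than 10 NCC reads. In miR-10, 1 of 747 NCC reads lay on the 3p arm, and 75 of the 152015 non-NCC reads.

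**Figure D4:**
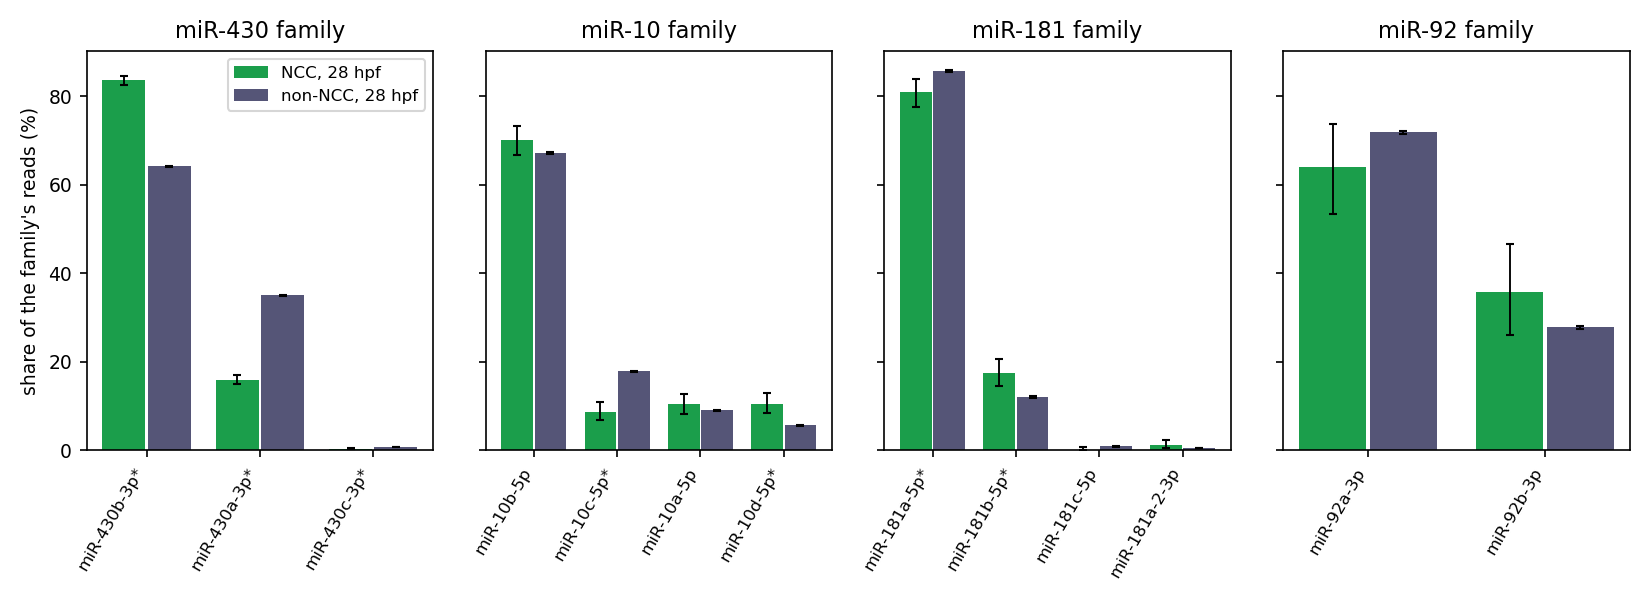
Share of a family's reads (%) held by its rows (those with at least 0.5% of the family in non-NCC) in both libraries at 28 hpf for miR-430, miR-10, miR-181 and miR-92; bars start at 0, error bars are 95% Clopper-Pearson intervals, and an asterisk marks an adjusted p under 0.05 in Fisher's exact test. miR-430b-3p held 83.7% of the family in NCC and 64.2% in non-NCC, and miR-430a-3p held 16.0% and 35.04%.

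The ratios at 28 hpf were also set beside those at 16 hpf, when the same populations were sorted before migration. The stages were normalized apart, so only ratios within a stage were used, and the exact conditional test on the 4 read counts was run for the 13 families with at least 10 NCC reads at 28 hpf. The ratio differed between the stages for 11 of the 13 (84.6%), and was lower at 28 hpf for 7 and higher for 4. The families were chosen by 1 of the 4 counts tested, so this share and balance hold for them only. With library totals at both stages, 6 were lower and 5 higher, and with totals without miR-430, 4 were lower and 7 higher. As above, the test covers counting error and not the spread between sorts. Outside the 13, with 9 NCC reads each at 28 hpf, miR-219 went from a log2 ratio of -5.43 at 16 hpf to 2.68. miR-222 went from 2.43 to -1.45. Among the 13, several families changed side. miR-92 had a log2 ratio of 1.04 at 16 hpf, higher in NCC, and -2.21 at 28 hpf, a difference of -3.24 (exact conditional test, adjusted p = 1.67e-243). miR-21 went from 0.74 to -1.41, a difference of -2.15 (exact conditional test, adjusted p = 4.35e-34), and miR-26 from 0.23 to -1.22, a difference of -1.45 (exact conditional test, adjusted p = 1.14e-05).

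miR-205 had a log2 ratio of 0.00 at 16 hpf, from 1071 and 63976 reads, and one higher by 2.66 at 28 hpf (exact conditional test, adjusted p = 8.40e-30). miR-100 had a log2 ratio of -0.22 at 16 hpf and 1.82 at 28 hpf (exact conditional test, adjusted p = 0.0001). miR-204, higher in NCC at 16 hpf with a log2 ratio of 2.41 from 2489 and 27999 reads, was at 0.30 at 28 hpf (exact conditional test, adjusted p = 9.07e-15). The 16-hpf value lies above the upper end of the 28-hpf interval, 0.96, which would be wider if gene copies shared the reads of miR-204. miR-9 stayed lower in NCC, at -1.11 and -0.85. miR-25 was at 0.33 at 16 hpf and at -0.01 at 28 hpf, the latter placed there by the deposited scaling. Neither difference between stages passed the test (exact conditional test, adjusted p = 0.405 for both), although with totals without miR-430 that of miR-9 did (0.88; exact conditional test, adjusted p = 0.0154).

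**Figure D5:**
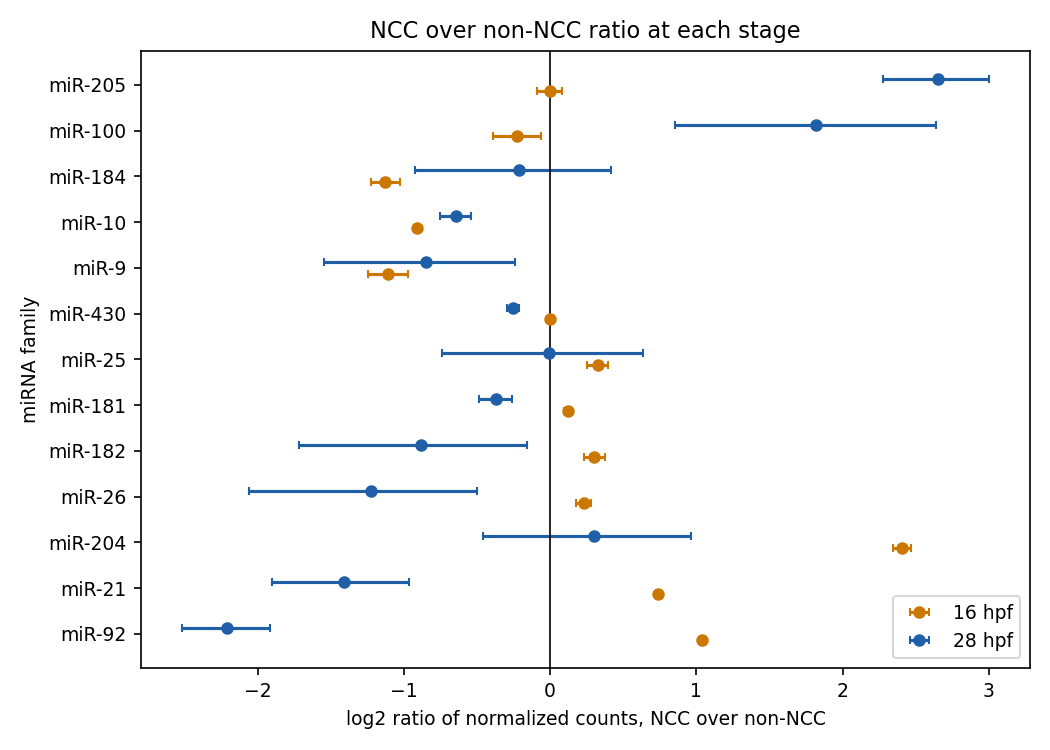
Log2 ratio of NCC over non-NCC normalized counts at 16 and 28 hpf for the 13 families with at least 10 NCC reads at 28 hpf, with 95% Clopper-Pearson intervals; the vertical line marks an equal level. miR-92, miR-21 and miR-26 lay to the right of the line at 16 hpf and to the left at 28 hpf, miR-205 moved from 0.00 to 2.65, and miR-204 from 2.41 to 0.30.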

How the data were processed

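Small RNA of sorted NCC and non-NCC cells was sequenced, with 1 library for each population at each stage. The submitters' processing notes name Bowtie, HTSeq, DESeq2 and the GRCz11 build, and versions are not given in the sources used here. The methods of the study describe TRIzol extraction and paired-end reads, whereas the labels name the miRNeasy kit and single-end reads. The authors deposited a normalized signal, the count of each miRNA divided by a size factor, in a table per stage, and all columns matched a sample by name. Reads were recovered by division with the smallest nonzero value of a column (tolerance 0.001 reads) and summed over the rows of a family.

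Families were compared by a two-sided exact binomial test, its null share set by the size factors, and named when they had at least 10 NCC reads, were called, were among the 5 with the most non-NCC reads and no NCC read, or were named by the study. Rows within families with at least 10 NCC reads were compared by Fisher's exact test, and stages by an exact conditional test. Families and lists were chosen with earlier results of these data known, and families outside the rule after their values were seen. Precursor gene numbers and neighbouring genes (within 10 kb) came from the gene table of GRCz12tu, which matched 370 of the 372 rows. The tests were checked on simulated data in which reads were drawn independently. That check covers neither PCR copies, nor reads shared by gene copies, nor the spread between libraries. Python 3.11.15 with scipy 1.17.1, numpy 2.4.6, pandas 2.3.3 and matplotlib 3.10.9, and edgeR 4.0.16 in R 4.3.3 for TMM factors, were used.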

Additional observations from a re-analysis of the deposited data

Results flagged for a closer look

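The NCC over non-NCC log2 ratio of 11 families differed between 28 and 16 hpf by the exact conditional test. Relative to 16 hpf, the ratio at 28 hpf was lower by -3.24 for miR-92, -2.15 for miR-21, -2.11 for miR-204, -1.45 for miR-26, -1.18 for miR-182, -0.49 for miR-181 and -0.25 for miR-430. It was higher by 2.66 for miR-205, 2.04 for miR-100, 0.91 for miR-184 and 0.26 for miR-10. Each population has 1 library at each stage, and the NCC library at 28 hpf held 6502 reads against 2340716 at 16 hpf, so that the part of the libraries themselves in these differences was not tested. With scaling to library totals in both stages, the difference of miR-430 became 0.12. With totals without miR-430 it became 0.37 and that of miR-181 became 0.13, miR-182 was no longer called and miR-9, at 0.88, was. With reads divided by precursor genes, 9 families differed: miR-184 was no longer called (exact conditional test, adjusted p = 0.0901), and miR-100 fell under 10 NCC reads and was not tested.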

How the results depend on the processing

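No paired analysis was possible because each population has 1 library at this stage, and no replicate could be left out. Grouping by seed was not run, since mature sequences were not used here. Families more than 2-fold lower in NCC numbered 2 with a 4-fold limit, 2 with totals without miR-430, 19 with 0.5 reads added, 3 with at least 10 reads in both libraries and 3 without each family's row of most NCC reads. Those higher numbered 49, 2 and 0 under the last 3 settings. The 49 include families with no NCC read and few non-NCC reads. Adding 0.5 reads weighs more in NCC, where 1 read stood for 130 non-NCC reads, and by itself places such families over 2-fold higher. Families called lower by the exact binomial test numbered 5 with library totals, 3 with totals without miR-430, 5 with TMM factors and 5 without the top row. Those called higher numbered 7, 8 and 7 under these 3 scalings, 2 with at least 10 reads in both and 3 with reads divided by precursor genes. Without the top row 0 were called higher, since each family called higher had all its NCC reads on that row. Families of 1 row also drop out there. With library totals the log2 ratio changed sign to 0.30 for miR-16, 0.0081 for miR-181, 0.17 for miR-184, 0.37 for miR-25 and 0.13 for miR-430. With totals without miR-430 it became 0.0263 for miR-10, 0.60 for miR-16, 0.30 for miR-181, 0.46 for miR-184, 0.66 for miR-25 and 0.42 for miR-430. With TMM factors it became 0.34 for miR-16, 0.0417 for miR-181, 0.20 for miR-184, 0.40 for miR-25 and 0.16 for miR-430. With 0.5 reads added it became 0.24 for miR-16 and 0.0296 for miR-25, and without the top row -0.50 for miR-125 and 0.0514 for miR-181. Apart from these shifts in scaling and the weight of the added 0.5 reads, the causes were not tested. In a setting chosen after seeing the data, with at least 1 NCC read, 19 of 33 families differed between stages. Below 3 expected NCC reads, depth hides any lower level.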
